A study of Mus musculus with 8 samples.

Results

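Interferon-stimulated genes are the genes that cells switch on when an interferon binds its receptor. A list of 36 such known genes was followed in dermal fibroblasts of young and old mice. The list was chosen with earlier results of these data known. A gene entered through the array probe sets that the platform annotation assigns to exactly 1 gene symbol, and where a gene had several, the one with the highest mean over all 8 arrays stood for it. By this rule 32 of the 36 genes were measured, among 17097 genes in all. The levels of Oas1a, Bst2, Isg15 and Ifi44 were not analysed here.

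Skin fibroblasts of 4 young mice (2 months old) and 4 old mice (18 months old), all males of the C57Bl/6 strain, were each put on an Affymetrix array of their own. No transgene, mutation or treatment was named for either age. The cells came from collagenase-digested skin without its subdermis, and were sorted as Pdgfra- and CD34-positive cells that lacked CD45, CD117, CD24, CD31 and EpCam. RNA of 5000 cells per mouse was amplified for 21 cycles before labelling, so each value describes an amplified pool of many cells. Because these are bulk samples, fewer cells that express a gene and less RNA of it per cell cannot be told apart.

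Type I interferons signal through a receptor of Ifnar1 and Ifnar2 and the kinases Jak1 and Tyk2 to a complex that holds Stat2 and Irf9 and binds the interferon-stimulated response element, or ISRE. Interferon gamma signals through Ifngr1 and Ifngr2, and promoters of its target genes carry the gamma-activated site, or GAS. The induced genes include proteins that block viral replication, sensors of foreign or misplaced nucleic acid, and GTPases that attack the vacuoles of intracellular parasites. Fibroblasts respond to interferons and are a classic source of interferon beta.

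The promoters show what the genes share by sequence rather than by measured level. RefSeq promoter windows on GRCm38.p6, from 250 bases before to 50 bases after a transcript's start, were matched by symbol to 25 of the 36 genes. The ISRE core was searched as GAAANNGAAA on both strands, so a core on the other strand appears as its reverse complement. It occurred in 14 of the 25 genes, or 56%, against 3.99% of 27025 genes with a window. The GAS core TTCNNNGAA, which reads the same on both strands, occurred in 7 of the 25 genes, or 28%, against 9.55% of all genes. Both cores were found in the windows of Oas1a, Bst2 and Igtp, and they shared bases in Bst2. Of the 11 measured genes with an ISRE core, Ddx58, Ifih1 and Gbp3 are not printed below. In Ddx58 and Ifih1 the core began 3 and 33 bases after the start. The stretches of the other measured genes run 5′ to 3′ on the gene's own strand, with every ISRE core in capitals.
Ifit1, chr19:34640770-34640828, plus strand: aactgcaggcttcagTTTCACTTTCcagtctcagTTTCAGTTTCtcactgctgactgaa
Ifit3, chr19:34583358-34583431, plus strand: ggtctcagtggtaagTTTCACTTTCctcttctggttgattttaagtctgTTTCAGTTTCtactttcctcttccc
Oas3, chr5:120777710-120777749, minus strand: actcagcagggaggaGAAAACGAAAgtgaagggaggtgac
Rsad2, chr12:26456548-26456587, minus strand: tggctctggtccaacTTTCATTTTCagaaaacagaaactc
Stat2, chr10:128270261-128270300, plus strand: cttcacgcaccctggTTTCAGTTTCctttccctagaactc
Gbp2, chr3:142620589-142620628, plus strand: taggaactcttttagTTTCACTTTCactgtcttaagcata
Igtp, chr11:58199507-58199546, plus strand: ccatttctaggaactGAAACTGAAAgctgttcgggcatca
Irgm1, chr11:48871420-48871465, minus strand: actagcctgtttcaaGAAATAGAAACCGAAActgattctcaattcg

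Ifit1, Ifit3 and Irgm1 held 2 cores each, which overlapped in Irgm1 and began 104 and 85 bases before the start in Ifit1. Igtp held its ISRE core 34 bases before the start and a GAS core 45 bases before it. These letters are a description of the sequence and not evidence that a factor bound there. Among the 21 measured genes with a window, the median age change was 0.04 (log2) for the 11 with an ISRE core and 0.00 for the 10 without one. Oasl2, the only gene of those 21 whose level changed with age by the test used below, held no ISRE core in its window, and the 250 bases before its start are given for comparison with the stretches above.
Oasl2, chr5:114896684-114896933, plus strand: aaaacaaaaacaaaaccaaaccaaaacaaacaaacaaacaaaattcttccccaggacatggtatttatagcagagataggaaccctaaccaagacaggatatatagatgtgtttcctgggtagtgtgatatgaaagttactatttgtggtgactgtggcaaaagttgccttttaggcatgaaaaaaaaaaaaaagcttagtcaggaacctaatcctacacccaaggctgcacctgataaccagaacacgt

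Values are log2 expression, on which a difference of 1 is a 2-fold change, and old minus young is positive where old mice were higher. Each gene was tested with limma over all 17097 genes, with Benjamini-Hochberg adjustment, and was called at an adjusted p under 0.05. A probe set was considered dim when its group mean lay below 5.10, the median over all probe sets. 26 of the 32 genes were above this level in at least 1 age group and 6 were below it in both. The array medians lay between 5.06 and 5.14, no 2 arrays held identical values, and the number of arrays limits the precision.

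Most interferon-stimulated genes did not pass the test for an age difference, and those that did went both ways. Ifi204, a DNA-binding member of the Ifi200 family, and Parp14, an ADP-ribosyltransferase, rose. Oasl2, a member of the oligoadenylate synthetase family, and Ifi27l2a, a small mitochondrial protein gene strongly induced by interferon, fell. These 4 genes of 32, or 12.5%, passed the threshold, against 679 of 17097 genes (3.97%) over the whole array. 2 genes were called higher, where the share over all genes was 1.82%, and 2 were called lower, where it was 2.15%. Among the 26 genes above the dim level in at least 1 age group, 15.4% were called, against 6.06% of all genes above that level. As the list was chosen with earlier results of these data known, these shares describe it and test nothing. The 32 genes split into 14 positive and 17 negative differences, with Irf8 at 0.00. Their median difference was -0.025, beside 0.01 over all genes.

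**Figure D1:**
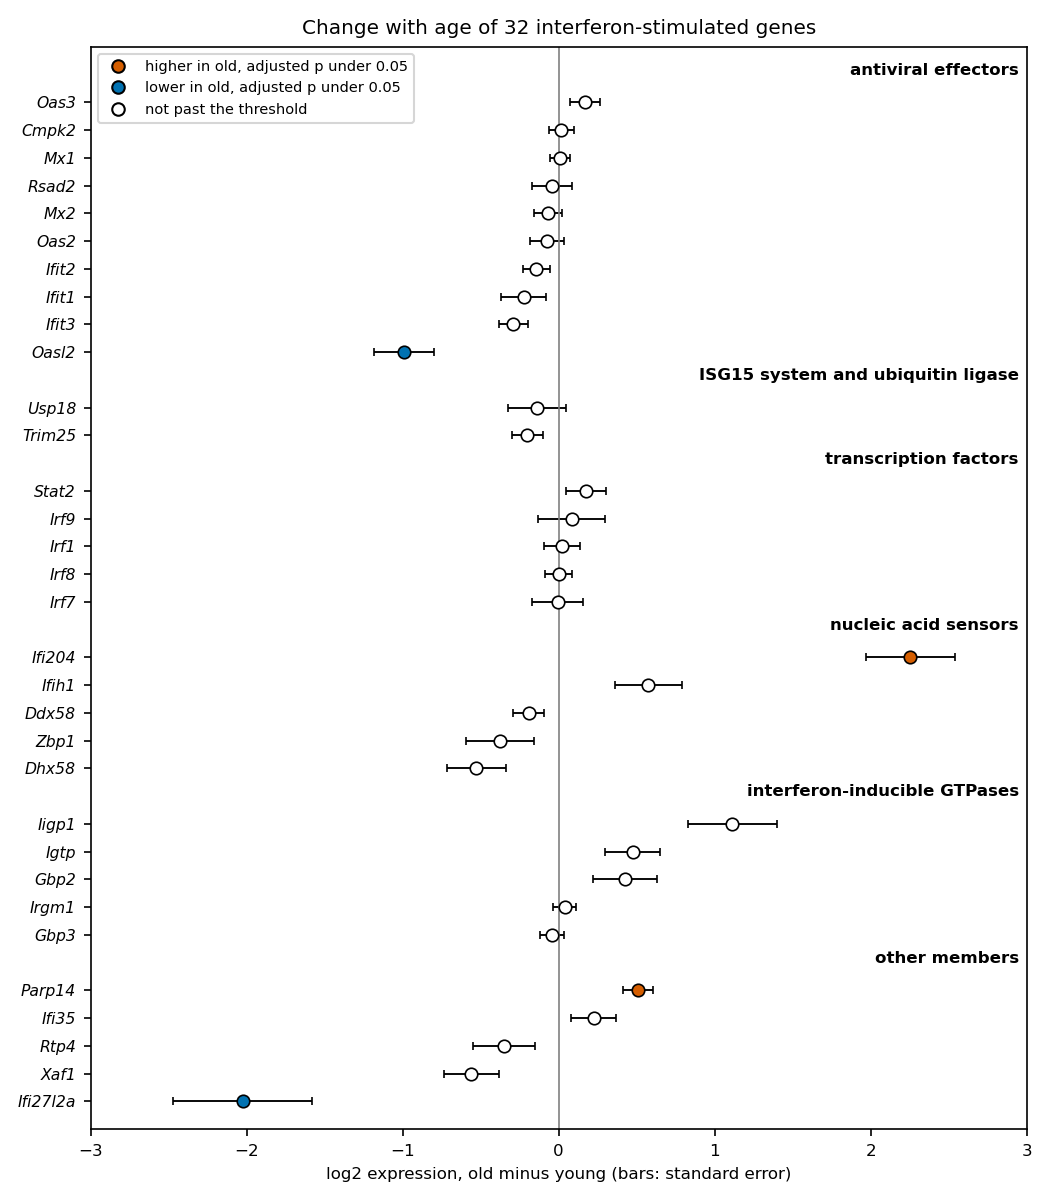
Difference in log2 expression between old and young mice (x axis, old minus young, 4 against 4 mice) for each of the 32 genes (y axis), grouped by role; points are estimates and bars are standard errors from limma. Filled points passed an adjusted p of 0.05: Ifi204 and Parp14 lie to the right of 0, Oasl2 and Ifi27l2a to the left, and most other genes lie close to 0.

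Antiviral effectors act directly on viral RNA or virus assembly. 10 of the 12 listed were measured, 6 above the dim level in at least 1 group. 1 gene, Oasl2, fell, none rose, and the median difference was -0.07. Oasl2 stood at 7.06, 6.14, 6.30 and 6.32 in young replicates 1 to 4 and at 5.20, 5.71, 5.49 and 5.46 in old replicates 1 to 4. Every old mouse was below every young mouse, and young replicate 1 stood highest. The difference was -0.99 ± 0.19 (SE, n = 4 and 4), a 1.99-fold lower level in old mice (limma adjusted p = 0.0203). Without old replicate 1, 3 or 4 the call was lost, at an adjusted p of 0.0515, 0.0542 or 0.0556; it held without old replicate 2 (0.0343) and without any 1 of the young mice.

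Ifit3, which binds with its relatives to viral RNA, stood at 8.06, 7.88, 7.89 and 7.73 in the young mice and at 7.68, 7.46, 7.52 and 7.74 in the old. The highest old mouse and the lowest young mouse overlapped by a margin of 0.01, and the difference of -0.29 ± 0.09 (SE) did not pass (limma adjusted p = 0.139). Its neighbours Ifit1 and Ifit2 were dim in both groups, with differences of -0.22 and -0.14 that did not pass. Closely related copies of the Ifit genes lie beside them, so a probe set may read more than 1 of them. Viperin, encoded by Rsad2, spanned 6.30 to 6.51 in young and 6.09 to 6.73 in old mice. Cmpk2, a mitochondrial nucleotide kinase gene next to Rsad2, spanned 6.56 to 6.82 in young and 6.56 to 6.77 in old mice.

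The dynamin-like GTPases Mx1 and Mx2 and the oligoadenylate synthetases Oas2 and Oas3 differed by between -0.08 and 0.17, and none of them passed. C57BL/6 mice carry a truncated Mx1, as background. Mx1 was dim in both groups (4.59 ± 0.07 in young and 4.60 ± 0.04 in old mice, SD, n = 4), as was Oas3 (4.45 ± 0.16 and 4.62 ± 0.12). For such probe sets a change would be hard to see. Oas2, above the dim level, stood at 5.76 ± 0.11 in young and 5.69 ± 0.21 in old mice.

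Usp18 removes the ubiquitin-like protein Isg15 from its targets and damps type I interferon signalling, and Trim25 is a ubiquitin ligase that activates the RNA sensor encoded by Ddx58. Usp18 ranged from 7.48 to 8.14 in young and from 7.19 to 7.91 in old mice, a difference of -0.14 ± 0.19 (SE). Trim25 ranged from 6.53 to 6.97 in young and from 6.47 to 6.66 in old mice, a difference of -0.20 ± 0.10 (SE). Neither passed the threshold, and in both genes the age groups overlapped.

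None of the 5 transcription factors passed the threshold, and their differences ran only from -0.01 to 0.18. Irf1, the factor that interferon gamma induces within hours, stood at 10.11 ± 0.16 (SD, n = 4) in young and 10.14 ± 0.20 in old mice. Irf7, which amplifies type I interferon production, stood at 6.84 ± 0.35 and 6.83 ± 0.17. Irf8, best known from myeloid cells, was at 5.26 in both groups. Stat2 differed by 0.18 ± 0.13 (SE) and its partner Irf9 by 0.08 ± 0.21 (SE).

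Irf9 was more spread among old mice than among young. It stood at 8.07, 7.81, 8.03 and 8.05 in the young mice and at 7.45, 7.87, 8.46 and 8.51 in the old. Old replicate 1 was below the young range, old replicate 2 inside it, and old replicates 3 and 4 above it. These pairs coincide with the numbers in the sample titles, which hold 2 runs of consecutive numbers with 2 young and 2 old mice in each. The submitters' design took 2 young and 2 old mice per day, but whether a run of numbers is such a day is not stated. Run 1 holds replicates 1 and 2 of each age, and within it Irf9 differed by -0.28, while within run 2 it differed by 0.45. Whether the age difference differs between the runs was not tested.

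Nucleic acid sensors held the clearest rise. Ifi204 stood at 5.93, 4.53, 5.62 and 5.52 in the young mice and at 7.52, 7.22, 8.05 and 7.83 in the old. The lowest old mouse exceeded the highest young mouse by more than 1 log2 unit. The difference was 2.26 ± 0.29 (SE, n = 4 and 4), or 4.77-fold higher in old mice (limma adjusted p = 0.00276), and it ranked 22 among all 17097 genes by size. Within the runs of title numbers it was 2.14 and 2.37. It passed in every one of the 18 alternative fits in which its call was recomputed, with an adjusted p of at most 0.0108.

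The Ifi200 genes lie side by side and are close copies of one another, so the probe set named for Ifi204 may read RNA of a relative, which was not tested. Ifi203 stood at 8.78 ± 0.46 (SD, n = 4) in young and 9.49 ± 0.13 in old mice, and Ifi202b at 5.20 ± 0.09 and 5.62 ± 0.21. In both genes every old mouse was above every young mouse, but neither passed (limma adjusted p = 0.0875 and 0.0641). Ifi205 differed by 0.40 ± 0.12 (SE) without passing (adjusted p = 0.107). Ifi209 and Ifi213, dim in both groups, differed by -0.05 and -0.01.

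None of the RNA helicases passed the threshold. Ifih1, which encodes the sensor of long double-stranded RNA, stood at 6.12, 6.36, 5.60 and 5.82 in the young mice and at 6.07, 6.49, 6.58 and 7.06 in the old. Old replicates 1 and 2 lay inside or near the young range, and the difference of 0.58 ± 0.22 (SE) did not pass (limma adjusted p = 0.223). It was 0.04 in run 1 and 1.11 in run 2. Ddx58, the sensor of RNA ends, differed by -0.19 ± 0.10 (SE) and its second bright probe set by -0.25. Dhx58, their regulator, was at 4.82, 4.70, 5.58 and 4.95 in the young mice and at 4.22, 4.77, 4.52 and 4.43 in the old, which overlapped and were dim in both groups (adjusted p = 0.195).

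Zbp1, the sensor of left-handed nucleic acid that can trigger cell death, stood at 8.51, 8.39, 7.79 and 8.08 in young mice and at 7.19, 7.98, 8.13 and 7.96 in old mice. Old replicate 1 was the lowest of all 8, and the other 3 old mice lay inside the young range. The difference of -0.38 ± 0.22 (SE) did not pass (limma adjusted p = 0.492). It was -0.86 in run 1, which holds old replicate 1, and 0.11 in run 2. A second Zbp1 probe set, also above the dim level, differed by -0.02.

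The interferon-inducible GTPases, which interferon gamma in particular induces and which act on parasite vacuoles, had a median difference of 0.43, beside 0.01 over all genes, but none of the 5 passed. 4 of the 5 differences were positive. Iigp1 stood at 7.44, 8.00, 6.35 and 7.38 in the young mice and at 8.21, 8.54, 8.54 and 8.33 in the old. Every old mouse was above every young mouse, the old mice lay close together, and young replicate 3 was far below the rest. The difference was 1.11 ± 0.29 (SE), or 2.16-fold (limma adjusted p = 0.0678), and its other probe set gave 0.99. Iigp1 passed in 6 of the 18 alternative fits. With the run of title numbers as a block the adjusted p was 0.0494, and without young replicate 2 or 3 it was 0.0264 or 0.0407. It did not pass with array weights, with a robust prior or without any 1 of the old mice. The highest adjusted p was 0.166, without old replicate 2.

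Igtp, also called Irgm3, stood at 7.91, 8.12, 7.46 and 7.29 in the young mice and at 8.08, 8.27, 8.36 and 7.97 in the old. Old mice lay from the upper part of the young range upward, and the difference of 0.48 ± 0.18 (SE) did not pass (limma adjusted p = 0.22). Gbp2, a guanylate-binding protein gene, stood at 8.12, 8.42, 7.53 and 8.41 in young and at 8.62, 8.87, 8.50 and 8.19 in old mice (difference 0.43 ± 0.21, SE, adjusted p = 0.383). Its other probe set differed by 0.35. Guanylate-binding protein genes are close copies, so a Gbp2 probe set may read a relative. Gbp3 was dim in both groups, and Irgm1, close to the dim level, differed by 0.04 ± 0.08 (SE).

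**Figure D2:**
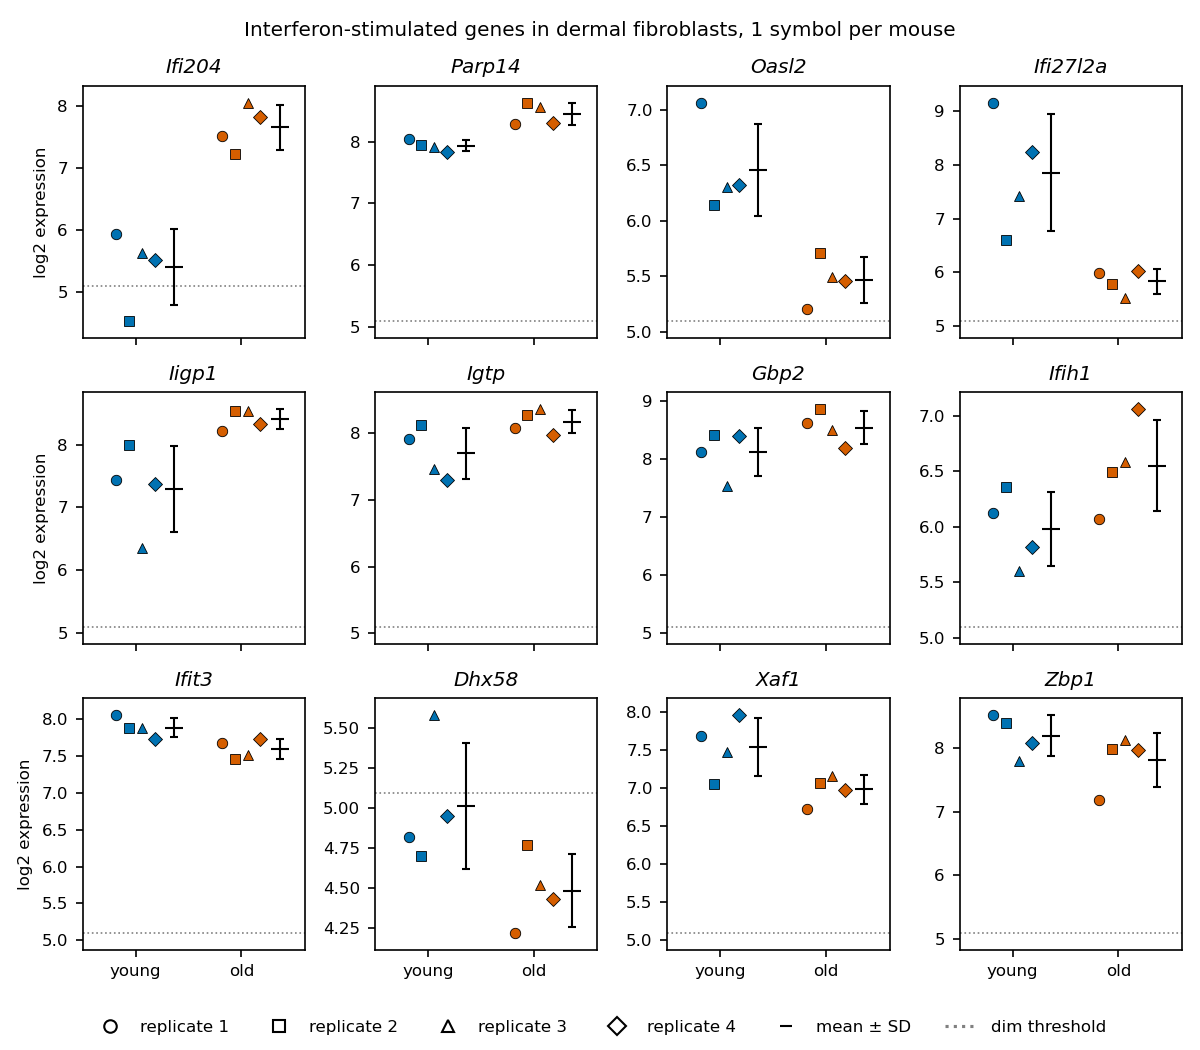
Log2 expression (y axis, a separate scale in each panel) of 12 of the genes in 4 young (blue) and 4 old (orange) mice; each symbol is 1 mouse, black bars are the mean ± SD and the dotted line is the dim level of 5.10. The age groups do not overlap for Ifi204, Parp14, Oasl2, Ifi27l2a and Iigp1 and overlap in the other 7 panels.

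Of the remaining genes, Ifi27l2a had the largest fall. It stood at 9.16, 6.61, 7.42 and 8.24 in the young mice and at 5.98, 5.79, 5.53 and 6.03 in the old. Young mice differed among themselves by over 2 log2 units, while the old mice lay together below all of them. The difference was -2.03 ± 0.45 (SE, n = 4 and 4), 4.07-fold lower in old mice (limma adjusted p = 0.0374), and within the runs it was -2.00 and -2.05.

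The Ifi27l2a call was close to the threshold. The difference stayed between -1.59 and -2.44 when any mouse was left out. The adjusted p was 0.0704, 0.0998, 0.094 and 0.0788 without old replicates 1 to 4 in turn, and 0.0631 and 0.0841 without young replicates 3 and 4. With array weights it was 0.0594, and with every probe set tested on its own 0.0539.

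Parp14 stood at 8.05, 7.95, 7.91 and 7.83 in the young mice and at 8.29, 8.63, 8.56 and 8.30 in the old. The groups did not overlap, and the difference was 0.51 ± 0.10 (SE, n = 4 and 4; limma adjusted p = 0.0176). A second Parp14 probe set, also above the dim level, differed by only 0.09 (adjusted p = 0.855 where the dimmest such probe set stood for each gene). The mean of a gene's probe sets gave 0.30 (adjusted p = 0.106). Without young replicate 2 or 3 the adjusted p was 0.0501 or 0.054, and without old replicate 2 or 3 it was 0.0505 or 0.0542.

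Xaf1, a pro-apoptotic interferon target, stood at 7.68, 7.06, 7.47 and 7.96 in young mice and at 6.72, 7.07, 7.16 and 6.98 in old mice. Young replicate 2 lay within the old range, and the difference of -0.56 ± 0.18 (SE) did not pass (limma adjusted p = 0.134). Without that mouse it was -0.72 (adjusted p = 0.0358). Rtp4, a receptor transporter gene with antiviral activity, differed by -0.35 ± 0.20 (SE), and young replicate 1, at 8.25, stood above the 7.10 to 7.55 of the other 7 mice. Ifi35 differed by 0.22 ± 0.14 (SE), being -0.10 in run 1 and 0.56 in run 2. Rtp4 and Ifi35 did not pass.

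Across the list, the groups did not overlap in 3 genes that were higher in old mice (Ifi204, Parp14 and Iigp1) and in 2 that were lower (Oasl2 and Ifi27l2a). Over all genes, 4.49% were higher and 5.21% lower without overlap. 10 of the 32 genes had an unadjusted p under 0.05, 5 in each direction, against 15.1% of all genes. The difference had the same sign in both runs of title numbers in 24 of the 32 genes, and in 9803 of all 17097. Run 2 against run 1 gave no call among the 32 genes (limma adjusted p), with 1 gene in each direction at an unadjusted p under 0.05. Over all genes 8 were called between runs, or 0.0468%, and 16.6% had an unadjusted p under 0.05.

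**Figure D3:**
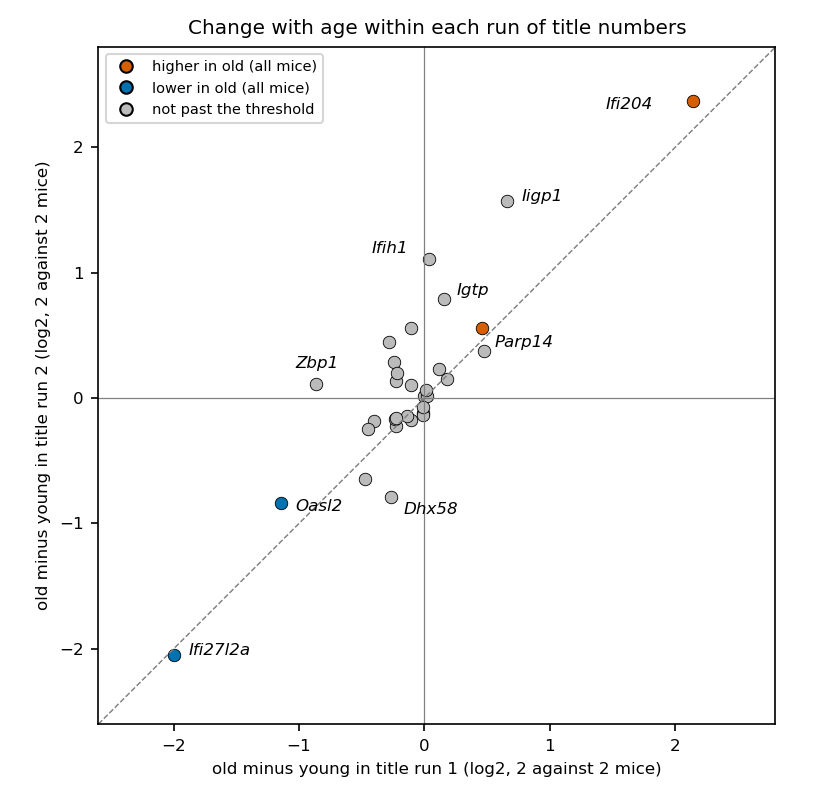
Old minus young (log2) of each of the 32 genes within run 1 of the title numbers (x axis) against run 2 (y axis), each from 2 old and 2 young mice; the dashed line marks equal differences. Ifi204 (2.14 and 2.37) and Ifi27l2a (-2.00 and -2.05) lie at the ends of the line, whereas Ifih1 (0.04 and 1.11) lies away from it.

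Single mice stood out across the list. Among the 26 genes above the dim level in at least 1 group, young replicate 1 was the highest young mouse in 18 genes (69.2%), against 29.8% of all 10757 genes above that level. Without the called genes it was highest in 14 of 22. It was highest in 5 of 6 antiviral effectors and 4 of 5 transcription factors, but in only 1 of 4 GTPases, where young replicate 2 was highest in 3. Its median deviation from the young mean was 0.15 (log2). Old replicate 1 was the lowest old mouse in 14 of the 26 genes (53.8%), and it was also lowest in 44.9% of all genes above the dim level. These positions describe single mice and were not tested.

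**Figure D4:**
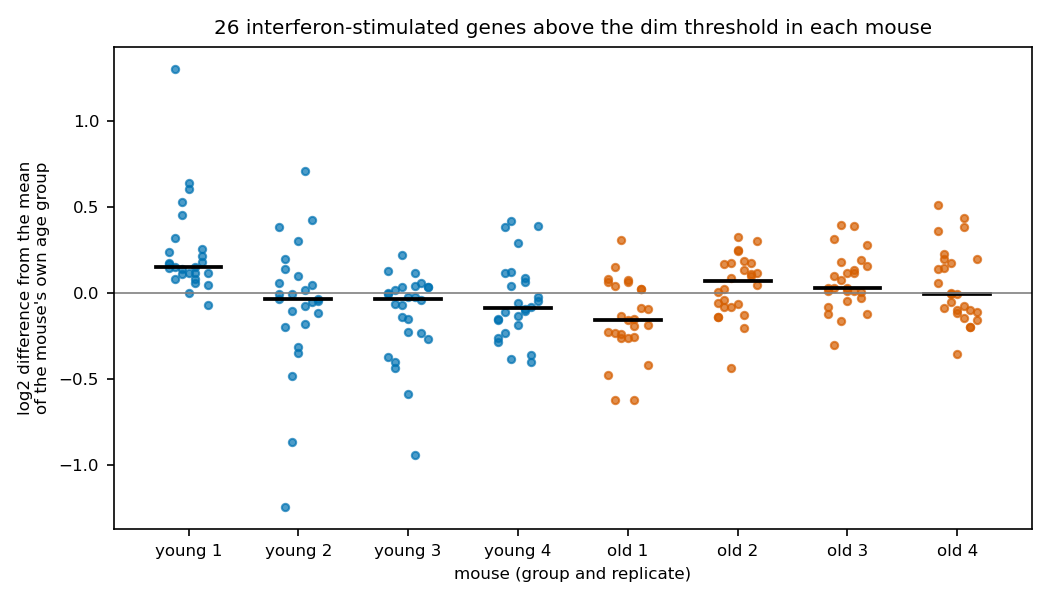
Deviation of each gene from the mean of the mouse's own age group (y axis, log2) in each of the 8 mice (x axis), for the 26 genes above the dim level; points are genes and black lines are medians. The median of young 1 lies at 0.15 and that of old 1 at -0.16, with the other 6 mice between -0.09 and 0.07.

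The other genes of the pathway were taken from a list of 126 names, of which 104 genes were measured; 6 were called higher and 2 lower in old mice, or 7.69% in all, where 3.97% of all genes were called. Of the 104 genes, 82 were above the dim level in at least 1 age group, and 6.06% of all genes above that level were called. These names too were chosen with earlier results of these data known, so the share describes the list and tests nothing. The median difference of the 104 was 0.04, beside 0.01 over all genes. No interferon passed: Ifnb1 stood at 4.33 ± 0.03 (SD, n = 4) in young and 4.38 ± 0.08 in old mice, and Ifng at 3.77 ± 0.08 and 3.80 ± 0.08, all below the dim level. Ifna2 and Ifna4 were dim as well, Ifna1 differed by 0.04 ± 0.17 (SE) and Ifna5 by 0.11 ± 0.07. Every old mouse was above every young one for Ifna5 without passing (limma adjusted p = 0.54).

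The receptors were not called either. Ifnar1 differed by -0.08 ± 0.08 (SE), Ifnar2 by -0.14 ± 0.08 and Ifngr1 by -0.06 ± 0.16. A second Ifnar2 probe set, also above the dim level, differed by 0.37 (limma adjusted p = 0.378 over all probe sets). Ifngr2, the signalling chain of the interferon gamma receptor, stood at 8.45 ± 0.07 (SD, n = 4) in young and 8.05 ± 0.21 in old mice, with no overlap. The difference of -0.40 ± 0.10 (SE) did not pass (limma adjusted p = 0.0694). A second Ifngr2 probe set, also above the dim level at a mean of 6.16, differed by only -0.02. Ifnlr1, the lambda interferon receptor chain, was dim in both groups, and Il10rb differed by 0.04. Jak1 differed by 0.10 ± 0.06 (SE), Tyk2 by -0.04 ± 0.17 and the feedback inhibitor Socs1 by -0.19 ± 0.08. None of the 8 measured JAK-STAT genes passed.

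None of the 15 measured genes that lead from nucleic acid to interferon passed. Cgas, the cytosolic DNA sensor, differed by 0.14 ± 0.08 (SE), and its adaptor Sting1 by -0.28 ± 0.15. The adaptor Mavs, dim in both groups, differed by 0.01, and the factor Irf3 by 0.13 ± 0.12.

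Of 62 measured genes in the list of further interferon-induced genes, which is the largest of the 6 lists, 5 were called higher and 2 lower. This was 11.3%, where 3.97% of all genes and 6.06% of all genes above the dim level were called. Of the 62, 49 were above that level in at least 1 age group. The names were chosen with earlier results of these data known, so the share of 11.3% tests nothing. Ifi47, an immunity-related GTPase like Iigp1 and Igtp, stood at 7.22, 7.40, 6.49 and 7.32 in young mice and at 8.01, 8.49, 8.82 and 8.28 in old mice. The groups did not overlap, young replicate 3 was lowest as it was for Iigp1, and the difference was 1.29 ± 0.22 (SE; limma adjusted p = 0.0113). Tgtp1, another GTPase of this family, rose by 0.72 ± 0.16 (adjusted p = 0.0363), from 4.10 ± 0.15 (SD, n = 4) to 4.82 ± 0.34, both means below the dim level. Without young replicate 1, 2, 3 or 4 its adjusted p was 0.098, 0.0571, 0.103 or 0.0611, and without old replicate 2 or 3 it was 0.106 or 0.0725. Further GTPase genes of the list did not pass. Gbp4 was lower in every old mouse than in any young one, by -0.29 (limma adjusted p = 0.141). Gbp7 differed by 0.065, its other probe set by 0.26, and Irgm2 by 0.25.

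Sp100, a nuclear body component, rose by 0.99 ± 0.16 (SE; limma adjusted p = 0.00844), from 6.28 ± 0.22 (SD, n = 4) to 7.27 ± 0.31, whereas its other probe set differed by 0.35 (adjusted p = 0.0634). Trim30a, a tripartite motif gene, rose by 1.00 ± 0.19 (adjusted p = 0.0197), from 4.93 ± 0.14 to 5.94 ± 0.44. Without young replicate 1, 2 or 3 or old replicate 3 the Trim30a value was 0.0594, 0.0597, 0.0503 or 0.0575 (limma adjusted p). Rnf213, a large ubiquitin ligase gene, rose by 0.47 ± 0.10 (adjusted p = 0.0294), and its other probe set differed by 0.08. Its adjusted p was between 0.0511 and 0.0871 when any mouse but young replicate 1 was left out. Samhd1 was not called by its brightest probe set, which differed by 0.38 ± 0.14 (SE; limma adjusted p = 0.213). Its other probe set, also above the dim level at a mean of 7.75, was higher by 0.72 (limma adjusted p = 0.00228 over all probe sets). Usp25, a deubiquitinase gene, rose by 0.51 ± 0.07 (adjusted p = 0.00351), from 7.14 ± 0.07 to 7.65 ± 0.08. It was placed in the list named feedback inhibitors, and whether it acts as one in these cells was not tested.

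The 2 falls were Ifitm1 and Ly6e. Ifitm1, which restricts virus entry at the membrane, stood at 8.25, 8.23, 8.68 and 8.46 in young mice and at 7.04, 7.27, 7.04 and 7.15 in old mice. The groups lay apart by close to 1 log2 unit, and the difference was -1.28 ± 0.11 (SE; limma adjusted p = 0.000353). Its relatives Ifitm2 and Ifitm3 differed by -0.03 and -0.01 and did not pass. Ly6e, a lipid-anchored protein gene, fell by 0.41 ± 0.07 (adjusted p = 0.0148), from 10.89 ± 0.12 (SD, n = 4) to 10.48 ± 0.06.

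**Figure D5:**
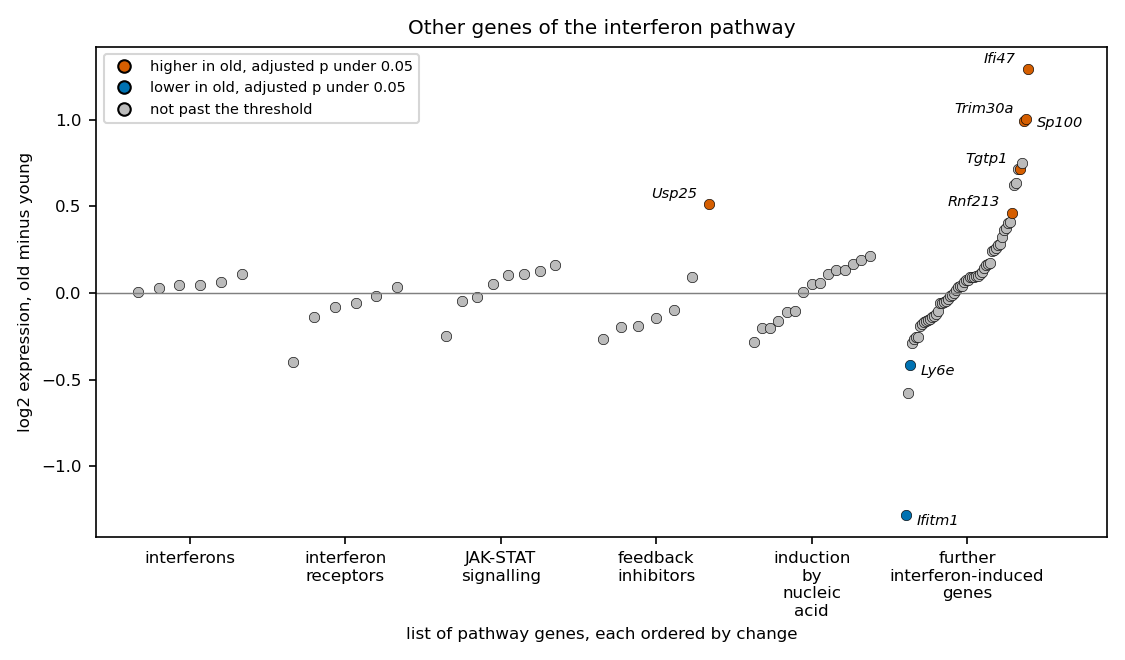
Old minus young (y axis, log2, 4 against 4 mice) of the 104 other measured pathway genes, each a point, in 6 lists (x axis) ordered by difference within a list; coloured points passed an adjusted p of 0.05. Interferons, receptors, JAK-STAT genes and nucleic acid induction genes hold no coloured point, and the further interferon-induced genes run from Ifitm1 (-1.28) to Ifi47 (1.29).

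Markers of the sorted cells and of other cells are given because they bear on a bulk sort. Of 9 fibroblast markers 8 were above the dim level. Pdgfra, by which the cells were sorted as a protein, was not: its probe set stood at 5.06 ± 0.25 (SD, n = 4) in young and 4.47 ± 0.28 in old mice. The summed log2 level of the fibroblast list was 94.55 to 95.43 in young and 93.0 to 94.37 in old mice, and Thy1 was called lower. The leukocyte list summed to 37.67 to 38.71 in young and 38.44 to 40.3 in old mice, with 0 of 8 called. Of the 8, 5 were above the dim level in at least 1 group (Cd52, Coro1a, Laptm5, Rac2 and Cytip), at group means of at most 5.68. Ptprc, the gene of CD45, was below the dim level at 3.43 in young and 3.51 in old mice, and Cd53 and Lcp1 were dim as well. The macrophage list summed to 49.33 to 50.64 and 49.84 to 50.58, with 2 of 10 above the dim level and none called. These 2 were Csf1r, at 8.85 in young and 8.82 in old mice, and Cd68, at 6.69 and 6.82. Adgre1 and Cd163 were among the dim ones. Of 4 plasmacytoid dendritic cell markers Tcf4, which fibroblasts also express, was called lower. The endothelial cell list summed to 37.29 to 39.27 in young and 38.42 to 40.16 in old mice. In it, 3 of 8 were above the dim level in at least 1 group and 0 were called. Pecam1, the gene of CD31, stood at 5.89 in young and 6.06 in old mice. Cdh5 stood at 5.28 in both groups and Kdr at 4.97 and 5.31.

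2 lists of other cell types had a called gene that was higher in old mice. The melanocyte list summed to 37.75 to 39.54 in young and 41.58 to 42.72 in old mice, 1 of 7 markers being called: Mlana stood at 6.22 ± 0.59 (SD, n = 4) and 9.10 ± 0.61, while Pmel differed by -0.09, Sox10 by -0.01 and Mitf by 0.57 without passing, and Dct, Tyr and Tyrp1 were dim. The pericyte and smooth muscle list summed to 29.48 to 30.39 and 30.39 to 31.36, 1 of 5 being called (Kcnj8). Kcnj8 differed by 1.16, whereas Acta2 differed by 0.09, Myh11 by -0.035 and Des by -0.01, and Rgs5 was dim. The B cell list summed to 20.47 to 21.31 in young and 21.46 to 22.22 in old mice, with 0 of 4 called. Cd79a was higher in every old mouse than in any young one. It stood at 6.62 ± 0.15 (SD, n = 4) and 7.08 ± 0.19 without passing (limma adjusted p = 0.0544). Cd79b, also above the dim level, differed by 0.025, and Ms4a1 and Ighm were dim. The keratinocyte list summed to 45.5 to 50.91 in young and 47.21 to 58.53 in old mice, with 7 of 8 above the dim level and 0 called. Epcam, whose protein the sort excluded, was higher in every old mouse than in any young one. It stood at 5.05 ± 0.08 (SD, n = 4) and 5.45 ± 0.19 without passing (limma adjusted p = 0.0584). Krt5 differed by 1.12 ± 0.42 (SE) without passing (limma adjusted p = 0.221). Krt1, dim by both group means, reached 6.38 in old replicate 3. The list's mean was 7.32 in that mouse and at most 6.40 in the other old mice and 6.36 in the young. In old replicate 3 Krt10 stood at 9.13 and Dsp at 7.76, against at most 7.21 and 5.49 in any other mouse. Krt14 and Trp63 were highest there among old mice but higher in a young mouse, and Krt15 was highest in old replicate 1. The part of other cell types in the differences of Ifi204, Parp14, Oasl2, Ifi27l2a and the pathway genes was not tested.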

How the data were processed

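Per the submitters' processing notes, the authors' deposited log2 values were made with RMA in the affy package, without versions; no genome build was named. RMA corrects background, normalizes arrays to one distribution and summarises probes per probe set, so a change of total RNA per cell would not show. Array scale and saturation were not analysed further.

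The table held 45141 probe sets: 28898 carry 1 gene symbol in the platform annotation, 551 several and 15692 none. For each of 17097 genes the probe set with the highest mean was compared between old and young mice with the moderated test of limma 3.58.1 under R version 4.3.3, without a covariate, with Benjamini-Hochberg adjustment over all genes. The script was tested on simulated data. A second fit compared the 2 runs of title numbers. The labels do not give replicate numbers, so replicates are numbered in accession order and pair nothing. P-values set a difference between groups of mice against the spread between mice within groups, moderated over all genes. Named are all measured members, pathway genes past the threshold, and the interferons, receptors and signalling genes fixed by name. Relatives and neighbours of a named gene (the Ifi200 and Ifitm families and further GTPase genes) and Samhd1 were named after their values were seen. The members, lists and tests were chosen with earlier results of these data known. Alternatives were other priors, array weights, probe set rules, renormalization, thresholds, the run as a block, and each mouse left out.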

Additional observations from a re-analysis of the deposited data

Results flagged for a closer look

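In 3 of 80 groups of 4 mice, 1 mouse stood apart from the other 3 by Dixon's test of the gap over the group's range at the 95% level; chance alone gives about 1 in 20. Mx2 was lowest in old replicate 4, at 4.95, where the other old mice lay at 5.06 to 5.08. Cmpk2 was highest in young replicate 1, at 6.82, where the others lay at 6.56 to 6.60. Irf9 was lowest in young replicate 2, at 7.81, where the others lay at 8.03 to 8.07. None of these 3 genes was called.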

How the results depend on the processing

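The alternatives numbered 20, 8 of which left out 1 mouse; a single gene's change was recomputed under 18 of them, or 17 where the gene was dim, and other results under those that apply to them. No called gene changed direction. Of the 28 genes not called, 7 turned sign in some alternative, and 2 (Iigp1 and Xaf1) were called in some. The total of 4 called interferon-stimulated genes became 2 (1 higher, 1 lower) when a 2-fold change was also required, and ran from 1 (without old replicate 3) to 5 (without young replicate 2) when a mouse was left out, with 1 to 2 higher and 0 to 3 lower. Array weights, or each probe set on its own, left 1 called lower, and the dimmest probe set above the dim level, an alternative chosen after seeing the data, left 1 called higher. Of other pathway genes, 10 were called higher with array weights, 2 higher and 1 lower with a 2-fold change, and 3 to 6 higher and 2 to 3 lower with a mouse left out. The list's median change ran from -0.058 to 0.0054 with a mouse left out, so its sign is not fixed. Over all genes, 1082 were called at an adjusted p under 0.1, 159 with a 2-fold change, and 427 to 606 with a mouse left out. The 8 genes called between runs of title numbers became 0 with the prior by mean level, the mean of probe sets or the dimmest probe set, 3 without dim genes, 44 over probe sets, 281 with array weights, and 0 to 78 with a mouse left out; no interferon-stimulated gene was called between runs in any of them. The cause of these shifts was not tested, except that fewer mice or probe sets tested alone change the number of tests or samples. No paired analysis was possible because the labels carry no shared replicate numbers. Dim probe sets, 6 of the 32, limit what can be seen.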
